A study of Mus musculus with 24 samples.

Results

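Aminoacyl-tRNA synthetases are the enzymes that join each amino acid to its transfer RNA (tRNA), the step that supplies protein synthesis with charged tRNA. Their genes were picked by symbol, a 1-letter amino acid code followed by "ars" or "ars2" together with Eprs, Farsa and Farsb, which matched 37 of the 17811 genes in the table. Of these, 18 code for enzymes of the cytosol, 17 for enzymes of the mitochondrion, which translates its own small set of messages, and 2, Gars (glycine) and Kars (lysine), for enzymes that serve both compartments. Eprs codes for a fused enzyme for glutamate and proline, and Farsa and Farsb code for the 2 kinds of subunit of the cytosolic phenylalanine enzyme. In mammals, 8 of the genes (Dars, Eprs, Iars, Kars, Lars, Mars, Qars and Rars) code for members of the multi-synthetase complex, which the scaffold proteins Aimp1, Aimp2 and Eef1e1 hold together. Enterocytes, the absorptive cells of the villus, leave the crypt at its base and migrate to the tip, where they are shed. Many cytosolic synthetase genes are known targets of ATF4, a transcription factor that is translated when amino acids are scarce, and Wars, the cytosolic tryptophan enzyme, is also known as an interferon-induced gene.

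The RNA came from the jejunal villus epithelium of 4 mice, C57BL/6 males on regular chow and 10 weeks old. Flow cytometry on CD73 and CD26, surface proteins whose staining changes along the villus, parted the cells into 6 villus zones, namely V6 (tip), V5 (middle-tip), V4 (middle), V3 (bottom-middle), V2 (bottom) and V1 (most bottom). Each mouse gave 1 bulk mcSCRB-seq library per zone, 24 libraries in all, which count the 3′ ends of polyadenylated RNA by unique molecular identifier (UMI, 1 per captured molecule). Library totals ranged from 806541 to 2266261 UMIs. All 10 enterocyte markers passed the filter on low counts, and so did all 9 markers of goblet cells, the mucus-secreting cells of the same epithelium. Levels are given as CPM, UMI counts scaled by each library's total after adjustment by its TMM factor (trimmed mean of M values, an estimate of relative library size). The summed goblet level averaged 73746 CPM in V1, 37184 in V2, 11811 in V3, 11806 in V4, 11583 in V5 and 11551 in V6. Every V1 library held more goblet transcript than any library from V3 upward. From V3 to V6 the means were close, but single libraries ranged from 9570 to 15823 CPM in V6 and from 5517 to 16644 CPM in V3. In sorted bulk samples, fewer cells of a type and less RNA per cell cannot be told apart. Mitochondrially encoded genes took 2.59 to 4.57% of UMIs in V1 and 4.31 to 13.2% in the other zones. With them removed the count of members called lower on the slope below was again 23, where 22.9% of all genes were called lower.

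A promoter sequence of the RefSeq table (GRCm38.p6, 300 bases around the start of transcription) was found for 26 of the 37 genes. The amino acid response element TGATGNAA, the site ATF4 binds together with a C/EBP partner, was searched on both strands since ATF4 is known to act on several of these genes. It was present in 5 of the 26 genes, namely Aars, Tars, Gars, Yars and Iars, against 1304 of 32851 promoter rows in the table (3.97%). Cytosolic genes held it in 4 of 10 promoters, the dual-location genes in 1 of 2 and the mitochondrial genes in 0 of 14. Below, the whole Aars promoter, the member with 2 matches, lies on the plus strand at chr8:111033592-111033891, with one match 112 bases before the start and the other 9 bases after it. The other 4 are shown as 60 bases around the match, at chr15:11399640-11399699 (minus strand), chr6:55037945-55038004, chr4:129189880-129189939 and chr13:49682111-49682170 (plus strand). Capitals mark the match or its reverse complement.
Aars: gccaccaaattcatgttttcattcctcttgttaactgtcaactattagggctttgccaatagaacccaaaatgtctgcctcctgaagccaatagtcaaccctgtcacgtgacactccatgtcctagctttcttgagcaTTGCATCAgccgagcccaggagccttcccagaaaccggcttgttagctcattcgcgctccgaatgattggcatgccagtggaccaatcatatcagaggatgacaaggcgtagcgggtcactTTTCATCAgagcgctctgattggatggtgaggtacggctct
Tars: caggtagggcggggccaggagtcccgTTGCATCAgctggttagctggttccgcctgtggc
Gars: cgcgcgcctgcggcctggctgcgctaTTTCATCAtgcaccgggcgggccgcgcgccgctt
Yars: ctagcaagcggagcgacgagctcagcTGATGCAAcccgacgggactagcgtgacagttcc
Iars: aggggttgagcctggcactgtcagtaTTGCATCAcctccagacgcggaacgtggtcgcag
A match in these letters is a description of the sequence and not a measured binding site.

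Transcripts of most synthetase genes fell toward the villus tip. Of the 37 genes, 34 passed the filter on low counts, and Aars2, Mars2 and Pars2 did not, with 151, 123 and 151 UMIs over all libraries. The slope, the change in log2 expression per zone from V1 to V6, was below 0 for 33 of the 34. It was called lower for 23 and higher for 0 at an adjusted p under 0.05 (edgeR quasi-likelihood test, adjusted over all 9328 genes tested), where the background was 22.8% of genes called lower and 22.1% called higher (44.9% in either direction). At an unadjusted p under 0.05, 27 were lower and 0 higher, and DESeq2 and limma-voom also called 0 higher. The median slope of the 34 was -0.14, against -0.0047 for all genes tested. Called slopes ran from -0.40 for Wars to -0.087 for Kars. Summed over all 37 genes, the level was 1614 CPM in V1, 1486 in V2, 1365 in V3, 1141 in V4, 1244 in V5 and 1113 in V6. Under scaling by total UMIs alone, 39.9% of all genes were called lower and 13.0% higher, the median of all genes moved to -0.071, and 30 members were lower and 0 higher. The largest step down of the mean summed level in CPM lay between V3 and V4, where the sum fell in 4 of 4 mice. Between the same zones the goblet sum was higher in V4 in mice 1 and 3 and lower in mice 2 and 4, and from V1 to V3 it fell in 4 of 4 mice. Proliferation markers averaged a summed 336 CPM in V3 and 251 CPM in V4, lower in V4 in mice 1 to 3 and higher in mouse 4. Enterocyte markers averaged 60035 CPM in V3 and 83128 CPM in V4, higher in V4 in 4 of 4 mice. The part of cell make-up in this step was not tested.

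**Figure D1:**
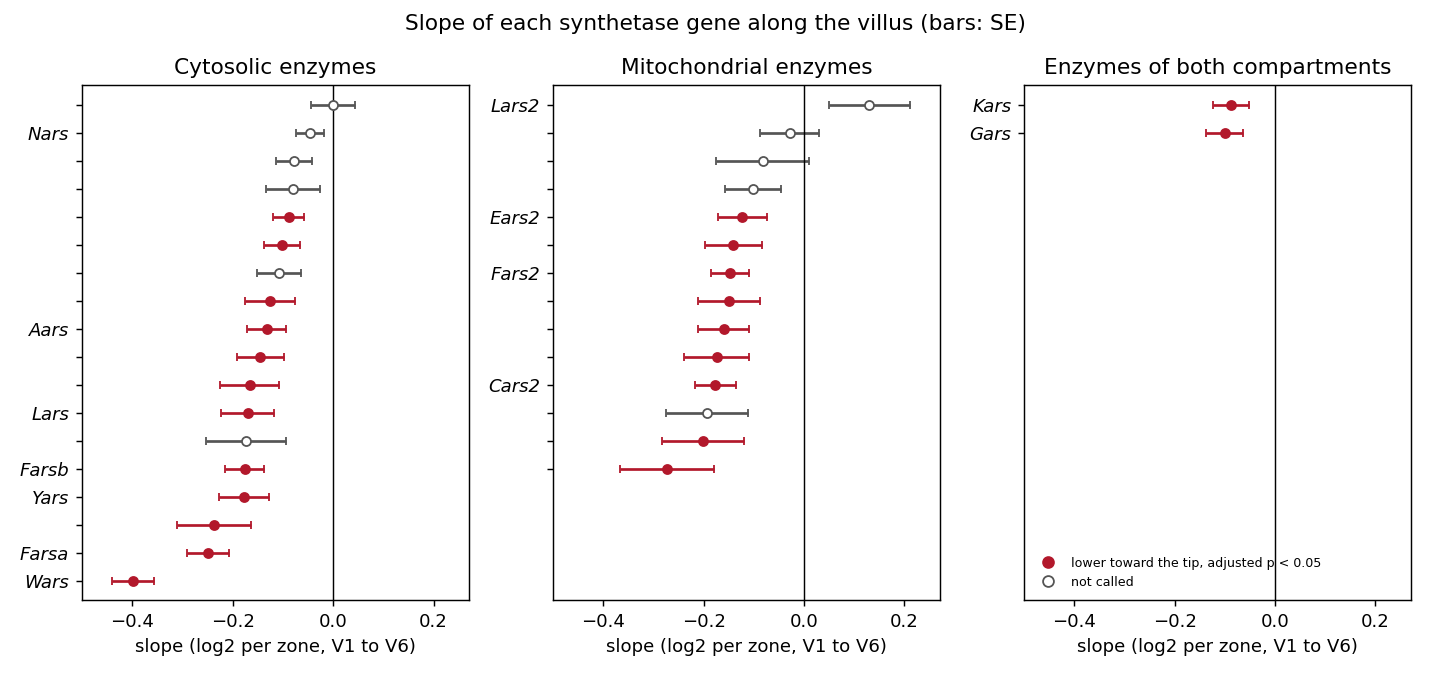
Slope of log2 expression per zone (x axis, V1 to V6) for the 34 synthetase genes that passed the filter, by compartment, with SE bars from the edgeR model over 24 libraries; filled red points have an adjusted p under 0.05, and the genes whose values are given by mouse are labelled. All 23 filled points lie below 0, and Lars2 is the only gene to the right of 0.

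Most members had a slope below 0 in each mouse. Of the 34 genes, 24 had a negative slope in 4 of 4 mice and 7 more in 3 of 4. The number below 0 was 30 in mouse 1, 29 in mouse 2, 32 in mouse 3 and 30 in mouse 4, with median slopes of -0.17, -0.11, -0.17 and -0.097. Sequencing indexes separated the mice except that V1 of mouse 2 carried the index of mouse 1, so these are also nearly values within an index group. With mouse number as a replicate block, the same 23 genes were called lower and so were Cars, Hars, Iars, Nars, Rars and Wars2, 29 in all, with 27.8% of all genes called lower. The count of 23 was 8 without mouse 1 and 12 without mouse 3. It was 3 (Wars, Farsa and Cars2) over V2 to V6, with 2.85% of genes called lower there, and 0 over V3 to V6, where the background was 0.0231%, where 3 genes had an unadjusted p under 0.05, and where 29 of the 32 genes tested were still below 0 with a median of -0.091. With a goblet score beside the block it was 0, with 2 genes at an unadjusted p under 0.05 and a median of -0.073, and only 0.547% of all genes were called lower in that fit.

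Among cytosolic enzymes, 12 of 18 genes fell and 0 rose, with a median slope of -0.14, where 22.8% of all genes were called lower. Wars, on chromosome 12 of GRCm38 (108860030 to 108894174, minus strand; positions from GENCODE M21 here and below), showed the steepest fall of all members. In mice 1 to 4 it had 23.1, 27.7, 26.9 and 33.9 CPM in V6, against 104, 205, 121 and 106 CPM in V1. Every V6 library lay far below every V1 library, and the V3 libraries, at 35.9, 60.3, 35.4 and 37.1 CPM, were already below all V1 libraries. The slope was -0.40 ± 0.042 (SE, adjusted p = 8.6e-08), and V6 minus V1 was -2.26 on the log2 scale (adjusted p = 3.6e-07). Without mouse 2, whose V1 library was the highest, the slope of Wars was -0.35 (adjusted p = 3.4e-07).

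The genes of the cytosolic phenylalanine enzyme fell together. Farsa, the gene of its alpha subunit (chromosome 8, 84856989 to 84869257, plus strand), had 7.91, 10.9, 12.02 and 11.1 CPM in V6 of mice 1 to 4, against 29.0, 24.6, 17.3 and 23.2 CPM in V1. Farsb, the gene of its beta subunit (chromosome 1, 78417975 to 78488897, minus strand), had 27.4, 37.0, 28.3 and 39.1 CPM in V6, against 58.0, 82.3, 53.8 and 65.4 CPM in V1. In neither gene did a V6 library reach a V1 library. The slope was -0.25 ± 0.042 for Farsa (SE, adjusted p = 4.4e-05) and -0.18 ± 0.039 for Farsb (SE, adjusted p = 8.3e-04).

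Yars, Aars and Lars charge tyrosine, alanine and leucine. Yars (chromosome 4, 129189760 to 129219607, plus strand) had 15.8, 27.7, 17.0 and 20.2 CPM in V6, against 27.9, 42.3, 37.1 and 34.5 CPM in V1, and the highest V6 library came close to the lowest V1 library without reaching it. Aars (chromosome 8, 111033144 to 111057664, plus strand) had 50.5, 57.1, 46.7 and 56.0 CPM in V6, against 79.1, 106, 68.0 and 77.3 CPM in V1, again with no overlap. Lars (chromosome 18, 42202298 to 42262194, minus strand) had 7.30, 20.2, 8.49 and 20.2 CPM in V6, against 21.6, 27.4, 21.0 and 33.3 CPM in V1, where mice 2 and 4 in V6 came near the lowest V1 libraries. The slopes were -0.18 ± 0.050 for Yars (SE, adjusted p = 0.0055), -0.13 ± 0.039 for Aars (SE, adjusted p = 0.0084) and -0.17 ± 0.053 for Lars (SE, adjusted p = 0.012). Without mouse 1, the adjusted p was 0.061 for Aars and 0.069 for Lars. The other cytosolic genes called lower were Vars (valine), Dars (aspartate), Sars (serine), Mars (methionine), Eprs and Tars (threonine), with slopes of -0.089 for Sars to -0.24 for Vars.

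The remaining 6 cytosolic genes were not called. Nars (chromosome 18, 64499647 to 64516652, minus strand), the asparagine enzyme and the cytosolic member with the most UMIs (7619 over all libraries), had 136, 240, 181 and 185 CPM in V6, against 196, 187, 222 and 193 CPM in V1. Its V3 libraries, at 202, 283, 225 and 248 CPM, were above the V1 library of the same mouse in 4 of 4 mice, and the zones overlapped. The slope of Nars was -0.047 ± 0.028 (SE, adjusted p = 0.18), and -0.051 with the replicate block (adjusted p = 0.030). Qars, the glutamine enzyme, averaged 102 ± 27.2 CPM in V6 and 99.9 ± 40.1 CPM in V1 (SD, n = 4 each), with a slope of -0.00029 ± 0.044 (SE, adjusted p = 0.997). Within V6, V3 and V1 alike, mouse 2 had the lowest level of Qars and mouse 4 the highest, and the zones overlapped. Rars (arginine, adjusted p = 0.05004), Iars (isoleucine, 0.078), Hars (histidine, 0.079) and Cars (cysteine, 0.23) also had slopes below 0 that were not called.

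**Figure D2:**
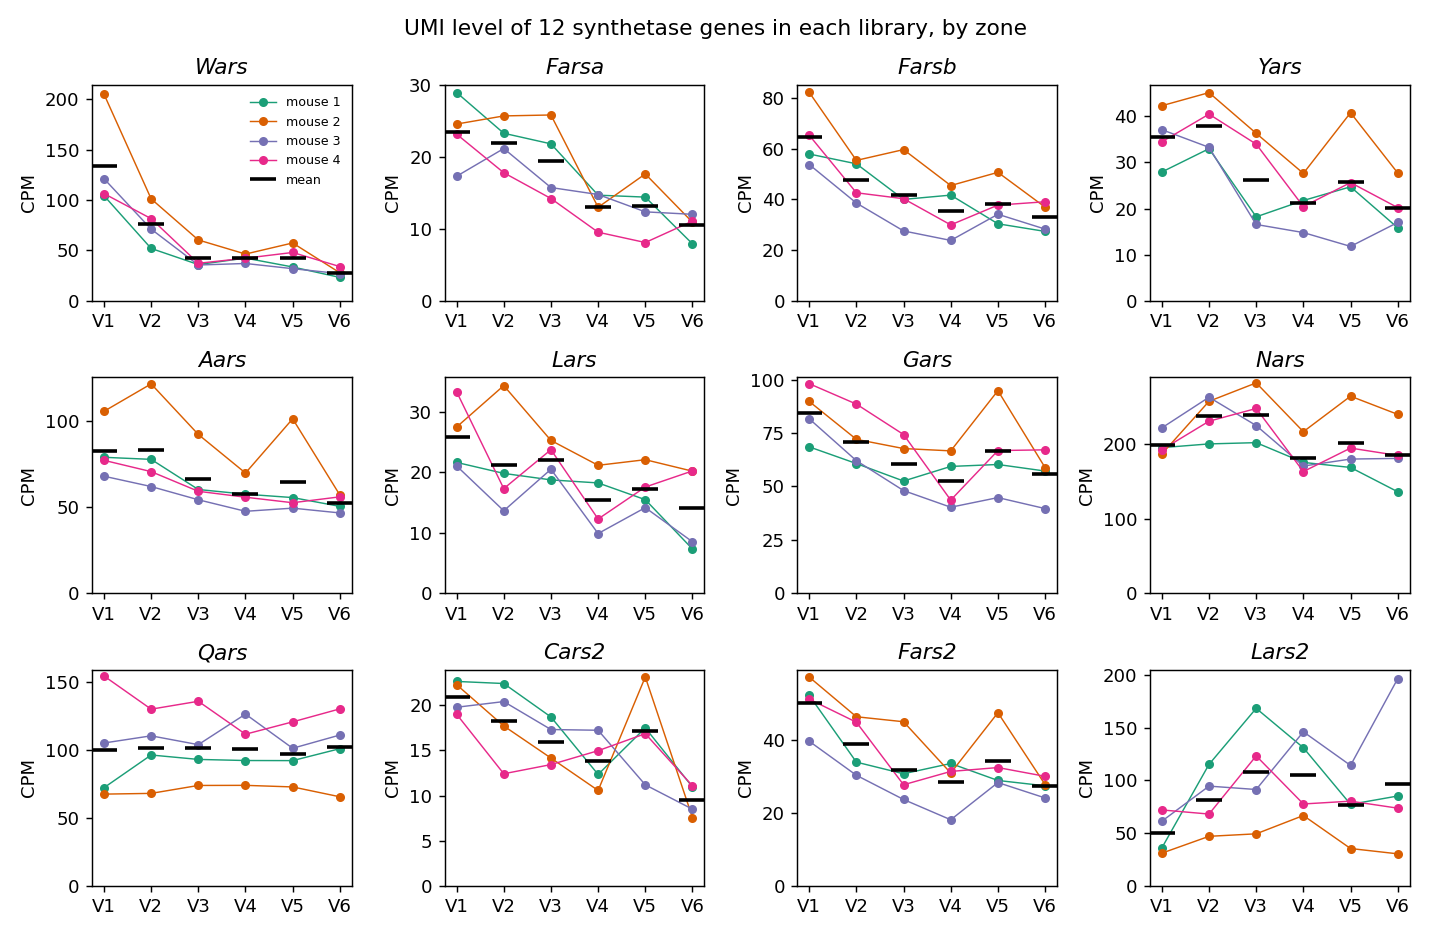
UMI level (y axis, CPM) of 12 synthetase genes in each of the 24 libraries by zone (x axis), with 1 coloured line per mouse and black bars for the mean of 4 mice. Wars drops steeply from V1 to V3, Qars is level, and Lars2 is highest in the middle zones or the tip depending on the mouse.

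In the multi-synthetase complex, of the 8 synthetase genes 5 fell, namely Dars, Eprs, Kars, Lars and Mars, with a median slope of -0.13 over the 8 and a range from -0.17 (Iars, not called) to -0.00029 (Qars). Their summed level was 299 ± 36.0 CPM in V6 and 399 ± 38.9 CPM in V1 (SD, n = 4 each). Of the 11 cytosolic genes outside the complex 8 fell, with a median of -0.13. The 3 scaffold genes, which code for proteins without synthetase activity, all fell, with a slope of -0.20 ± 0.052 for Eef1e1 (SE, adjusted p = 0.0042), -0.094 ± 0.028 for Aimp1 (SE, adjusted p = 0.0079) and -0.078 ± 0.032 for Aimp2 (SE, adjusted p = 0.048). By enzyme class, which groups synthetases by the fold of their catalytic domain, 11 of 18 class I genes and 12 of 16 class II genes fell. Over all genes tested, 22.8% were called lower on the slope. No difference between these groups was tested.

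Both dual-location genes fell. Gars (chromosome 6, 55038007 to 55079500, plus strand) had 57.2, 58.8, 39.6 and 67.1 CPM in V6, against 68.5, 89.8, 81.7 and 98.1 CPM in V1, with no overlap and a slope of -0.10 ± 0.036 (SE, adjusted p = 0.028). Kars (chromosome 8, 111993443 to 112011323, minus strand) had 31.0, 52.9, 41.0 and 44.3 CPM in V6, against 60.6, 64.6, 45.8 and 55.3 CPM in V1. The zones of Kars overlapped through mouse 2 in V6 and mouse 3 in V1, and its slope was -0.087 ± 0.035 (SE, adjusted p = 0.046). The call of Gars was lost without mouse 3 (adjusted p = 0.13) and without mouse 4 (0.12), and that of Kars without mouse 1 (0.35) and without mouse 4 (0.14).

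Among mitochondrial enzymes, 9 of the 14 genes tested fell and 0 rose, with a median slope of -0.15, where 22.8% of all genes were called lower. Cars2, the cysteine enzyme (chromosome 8, 11513977 to 11550783, minus strand), had 10.9, 7.56, 8.49 and 11.1 CPM in V6, against 22.7, 22.3, 19.8 and 19.0 CPM in V1. Fars2, the phenylalanine enzyme (chromosome 13, 36117412 to 36726280, plus strand), had 27.4, 27.7, 24.05 and 29.97 CPM in V6, against 52.2, 57.2, 39.6 and 51.1 CPM in V1. Neither gene had a V6 library as high as any V1 library, and the slopes were -0.18 ± 0.040 for Cars2 (SE, adjusted p = 0.0011) and -0.15 ± 0.037 for Fars2 (SE, adjusted p = 0.0026). Ears2, the glutamate enzyme (chromosome 7, 122037213 to 122067263, minus strand), also fell (slope -0.12 ± 0.048, SE, adjusted p = 0.041), but its zones overlapped: it had 7.91, 15.1, 10.6 and 13.0 CPM in V6, against 15.8, 10.9, 17.9 and 22 CPM in V1. Mouse 2 went the other way from the other mice in Ears2, and the call was lost when mouse 1, mouse 3 or mouse 4 was left out (adjusted p = 0.17, 0.21 and 0.20). Rars2 (arginine), Yars2 (tyrosine), Tars2 (threonine), Sars2 (serine) and Vars2 (valine) were also called lower, with slopes of -0.15 for Sars2 to -0.27 for Yars2. Wars2, Iars2, Nars2 and Hars2 had slopes below 0 that were not called. Wars2 had only 144 UMIs in all, and Vars2 only 213.

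Lars2, the mitochondrial leucine enzyme (chromosome 9, 123366927 to 123462666, plus strand), was the one tested member with a slope above 0. In mice 1 to 4 it had 85.2, 30.2, 197 and 73.6 CPM in V6, against 35.8, 30.9, 61.2 and 71.9 CPM in V1. Its V3 libraries had 168, 49.2, 91.3 and 123 CPM and were above the V1 library of the same mouse in 4 of 4 mice, while V6 was below V1 in mouse 2 and nearly equal to it in mouse 4. The slope was 0.13 ± 0.080 (SE, adjusted p = 0.20). V3 minus V1 was 1.12 ± 0.48 on the log2 scale (SE, adjusted p = 0.10), and 1.10 with the replicate block (adjusted p = 0.012). V6 minus V1 was 0.95 ± 0.48 (SE, adjusted p = 0.12), and 0.84 with the block (adjusted p = 0.041). Levels of mt-Rnr2, the mitochondrial large ribosomal RNA, also varied along the axis. As a share of all UMIs mt-Rnr2 reached 2.04% in mouse 1, 0.538% in mouse 2, 1.501% in mouse 3 and 0.949% in mouse 4, and its lowest share was in V1 in all 4 mice. Both genes were higher in V3 than in V1 in 4 of 4 mice. The highest Lars2 level was 168, 66.6, 197 and 123 CPM in mice 1 to 4. The peaks of both genes were thus highest in mice 1 and 3 and lowest in mouse 2. The zones of their extremes differed in part: Lars2 was lowest in V1 in mice 1 and 3 only. Both genes peaked in the same zone (V3) in mouse 1 but not in the other mice. With both taken as a share of all UMIs, they moved in the same direction between all neighbouring zones in mouse 1. They also did so in the other mice, except from V2 to V3 and V4 to V5 in mouse 2. The further exceptions were V2 to V3 in mouse 3 and V1 to V2 in mouse 4. Whether they vary together over all libraries was not tested. The exons of Lars2 shared 0 stretches of 20 bases with mt-Rnr2, and the part of this RNA in the Lars2 counts was not tested. Without Lars2, the summed level of the other 16 mitochondrial genes was 153 ± 38.5 CPM in V6 and 272 ± 49.6 CPM in V1 (SD, n = 4 each).

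**Figure D3:**
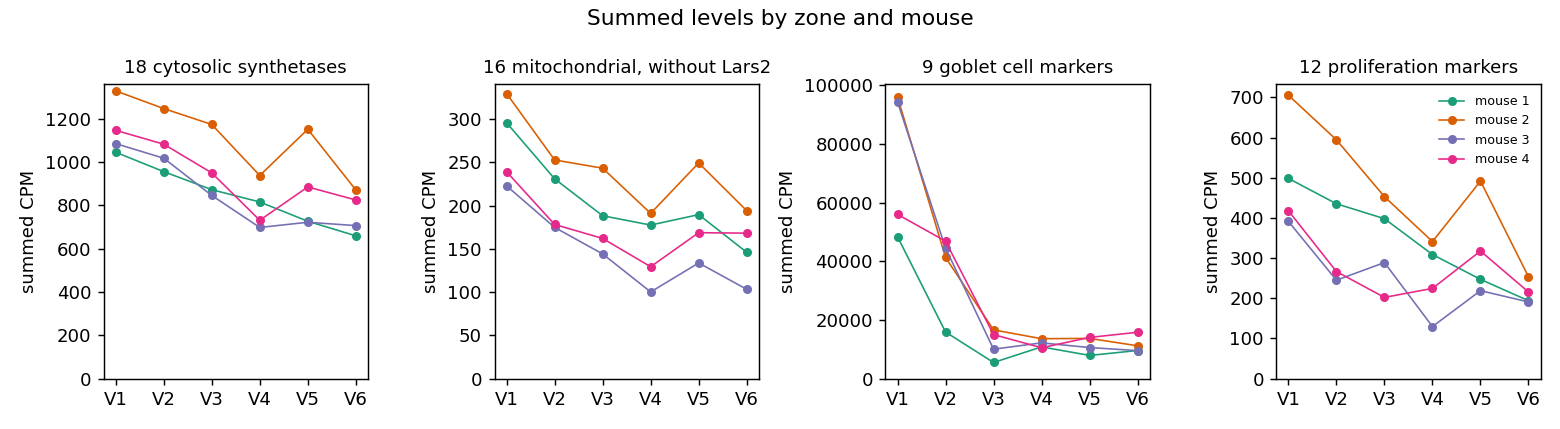
Summed UMI level (y axis, CPM) by zone (x axis) with 1 line per mouse, for cytosolic synthetases, mitochondrial synthetases without Lars2, goblet cell markers and proliferation markers. Cytosolic synthetases average 766 CPM in V6 and 1151 CPM in V1, and the mean goblet sum is 11551 CPM in V6 and 11811 CPM in V3, while the lines of single mice cross.

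For the tip against the most bottom zone, V6 minus V1, 17 of the 34 genes were lower and 0 higher, where the background was 18.6% of genes called lower and 20.2% called higher (38.8% in either direction). The median difference was -0.80 on the log2 scale, against -0.00071 for all genes tested, and 32 of the 34 were below 0. At an unadjusted p under 0.05, 22 were lower and 0 higher, and DESeq2 and limma-voom also called 0 higher. In 15 genes all V6 libraries lay below all V1 libraries, and in 0 genes all lay above, where 16.5% and 17.9% of all genes did so. For 24 of the 34, each mouse had less in its V6 library than in its V1 library. The summed level of the cytosolic genes was 766 ± 99.0 CPM in V6 and 1151 ± 125 CPM in V1 (SD, n = 4 each). The count of 17 was 5, 8 and 9 without mouse 1, mouse 3 and mouse 4, where 10.6%, 15.2% and 13.4% of all genes were called lower. It was 27 with scaling by total UMIs alone. Under that scaling the median of all genes shifted to -0.34 and the calls over all genes were 33.3% lower and 12.3% higher. With the replicate block 24 were lower and Lars2 was higher, where 24.7% of all genes were called lower, 26.7% higher and 51.4% in either direction. With a goblet score beside the block, edgeR called 0 of the 17, with 4 members lower and 0 higher at an unadjusted p under 0.05. In that fit V6 minus V1 was -1.03 for Wars (adjusted p = 0.21) and 0.31 for Gars (adjusted p = 0.77), and the median over members was -0.39. Over all genes, the same fit called only 0.450% lower and 1.80% higher. Since the goblet score changes with zone, this fit cannot tell goblet content from zone.

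Most members had lower means over both the lower and the upper stretch of the villus, but few passed the test in either. V3 minus V1 was below 0 for 31 of the 34 genes, with a median of -0.40, against -0.0067 for all genes tested. It was called lower for 3, namely Wars (-1.66, adjusted p = 3.4e-05), Fars2 (-0.65, adjusted p = 0.036) and Vars2 (-1.35, adjusted p = 0.047), and higher for 0, with a background of 8.32% called lower and 11.5% called higher (19.8% in either direction). The call of Vars2 rests on few molecules, with 3 to 7 UMIs per V3 library and 13 to 23 per V1 library. At an unadjusted p under 0.05, 7 were lower and 1 (Lars2) higher, and DESeq2 and limma-voom each called 4 lower and 0 higher. With the replicate block 10 were lower, the same 3 with Aars, Dars, Farsb, Gars, Sars2, Tars and Tars2, and Lars2 was higher, where 17.6% of all genes were called lower and 37.6% in either direction. Without mouse 1, 3 or 4 Wars alone was called lower, and without mouse 2 the genes called lower were Wars, Fars2, Farsb, Tars and Ears2, 5 in all. In these fits 4.09%, 7.35%, 5.24% and 2.84% of all genes were called lower without mice 1 to 4. Total UMI scaling gave 7 lower, with 14.4% of all genes called lower and 8.15% higher. This is the stretch where the mean goblet sum was 11811 CPM in V3 and 73746 CPM in V1. With a goblet score beside the block, edgeR called 0 of the 3, at -0.49 for Wars (adjusted p = 0.75), -0.15 for Fars2 (0.96) and 0.39 for Vars2 (0.94), with 1 member lower and 0 higher at an unadjusted p under 0.05. In that fit 0 of all genes tested were called lower and 0.139% higher. The goblet score changes with zone, so the fit cannot tell goblet content from zone.

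V6 minus V3 was also below 0 for 31 of the 34 genes, with a median of -0.33, against -0.032 for all genes tested. In mice 1 to 4 the goblet sum was 9602, 11208, 9570 and 15823 CPM in V6, against 5517, 16644, 10052 and 15033 CPM in V3, so it was higher in V6 in mice 1 and 4 and lower in mice 2 and 3. Farsa was called lower (-0.91 ± 0.25, SE, adjusted p = 0.046), with 7.91, 10.9, 12.02 and 11.1 CPM in V6, against 21.8, 25.9, 15.7 and 14.2 CPM in V3, and the groups did not overlap. The background was 0.0643% of genes called lower (6 genes), 3.07% called higher and 3.13% in either direction. The DESeq2 Wald test also called Farsa, and at an unadjusted p under 0.05, 4 members (Farsa, Cars2, Wars and Nars) were lower and 0 higher. The call was lost when any 1 mouse was left out (adjusted p = 0.54, 0.30, 0.089 and 0.058 without mice 1 to 4) and with DESeq2 size factors (0.052) or limma-voom (0.065). With the replicate block Farsa, Nars and Wars were lower, with 1.28% of all genes called lower, 7.27% higher and 8.54% in either direction, and the same 3 were lower when a goblet score was added. Total UMI scaling gave 1 lower, with 0.332% of all genes called lower and 2.18% higher.

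**Figure D4:**
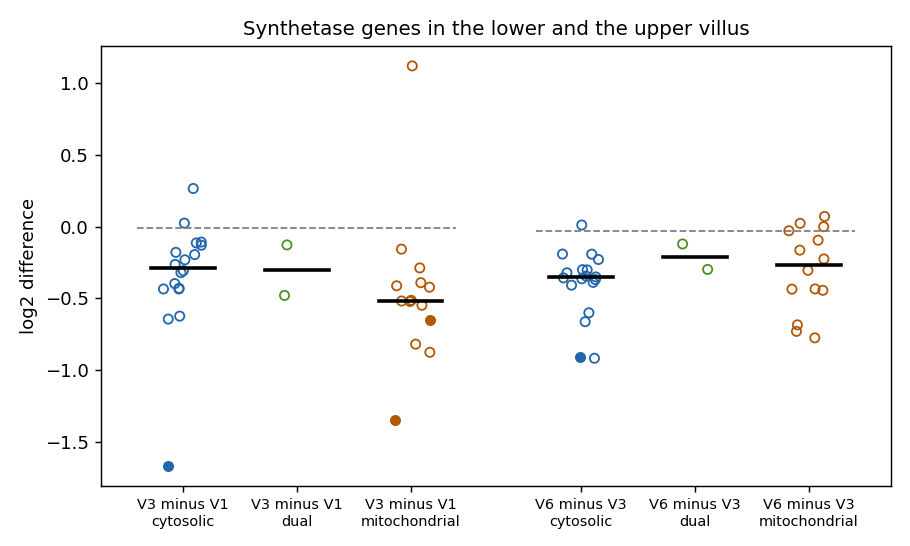
Log2 difference (y axis) of each synthetase gene for V3 minus V1 and for V6 minus V3, by compartment (x axis). Filled points have an adjusted p under 0.05, black bars are medians of each compartment and dashed lines are the medians of all genes tested; most points lie below the dashed line in both stretches, and the open point at the top is Lars2.

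Along the 6 zones, 25 of the 34 genes had their highest mean in V1, and 17 had their lowest in V6 and 13 in V4. V5 stood above V4 in 28 genes, while V4 was below V3 in 32 and V6 below V5 in 31. In the summed cytosolic level the V5 library of mouse 2 was the highest of that zone, at 1151 CPM against 722 to 885 CPM in the other mice. That library also had the highest V5 sums of Paneth cell markers (44416 CPM against 5308 to 33706) and proliferation markers (492 CPM against 219 to 318). Its stroma and blood sum was 54.0 CPM against 6.69 to 11.5. Its enterocyte sum was the lowest of V5, at 53849 CPM against 67905 to 93796. The part of this make-up in its synthetase level was not tested. Curvature, the quadratic contrast over the 6 zones that is positive when the ends lie above the middle, was called for 0 of 34 genes by edgeR, DESeq2 and limma-voom, with a background of 7.43% called in either direction (2.86% positive and 4.57% negative). At an unadjusted p under 0.05, 1 gene, Wars, was positive (0.49 ± 0.18, SE, adjusted p = 0.089), and it was called with the replicate block (adjusted p = 0.0022), where 9.55% of all genes were positive. The next smallest were Ears2 (0.39 ± 0.21, SE, adjusted p = 0.29), lowest in V4 at 8.38 ± 2.89 CPM (SD, n = 4), and Lars2 (-0.59 ± 0.34, SE, adjusted p = 0.33).

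Genes that act beside the synthetases were also examined. All 4 genes of the elongation factor eEF1, which carries charged tRNA to the ribosome, were called lower. Eef1a1, its tRNA-binding subunit, averaged 913 ± 141 CPM in V6 and 1526 ± 423 CPM in V1 (SD, n = 4 each), with a slope of -0.15 ± 0.035 (SE, adjusted p = 0.0015). Eef1g fell most, at 227 ± 29.3 CPM in V6 and 454 ± 63.6 CPM in V1 (SD, n = 4 each), with a slope of -0.18 ± 0.034 (SE, adjusted p = 1.8e-04). Of 16 listed genes for tRNA maturation and other charging steps, 13 were tested, 5 fell and 0 rose, with a median slope of -0.076. Over all genes, 22.8% were called lower. The 5 were Pstk, which phosphorylates seryl-tRNA on the way to selenocysteine (-0.24 ± 0.065, SE, adjusted p = 0.0042), Elac2, which trims tRNA 3′ ends, Gatb of the mitochondrial glutamine route, Dtd1, which removes D-amino acids from tRNA, and Rtcb, the tRNA splicing ligase.

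The list of ATF4 and genes it is known to act on held calls in both directions. Of 26 listed genes 19 were tested, 3 rose and 4 fell, against 22.1% of all genes called higher and 22.8% called lower, with a median slope of -0.085. Cebpg (0.13 ± 0.021, SE, adjusted p = 2.1e-05), Ddit3 (0.25 ± 0.047, SE, adjusted p = 1.8e-04) and Trib3 (0.27 ± 0.054, SE, adjusted p = 3.4e-04) rose, all of them genes of transcription or signalling in the stress response. Aldh18a1 of proline synthesis, Shmt2 of mitochondrial serine metabolism, and the transcription regulators Nupr1 and Atf5 fell. The slope of Atf4 itself was 0.029 ± 0.031 (SE, adjusted p = 0.45). Slc3a2, an amino acid transporter subunit and the list's most abundant gene, averaged 462 ± 156 CPM in V6 and 286 ± 159 CPM in V1 (SD, n = 4 each). Its slope was 0.11 (adjusted p = 0.19), and 0.12 with the replicate block (adjusted p = 9.4e-04), under which 4 of the list rose and 7 fell. Of the 5 synthetase genes with the response element, Aars, Tars, Gars and Yars were called lower on the slope and Iars was not.

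Most interferon-response genes rose. Of 14 tested genes of the 16 listed, 11 rose and 1 fell, with a median slope of 0.22. Over all genes, 22.1% were called higher and 22.8% lower. Irf7, an interferon regulatory factor, averaged 220 ± 25.0 CPM in V6 and 94.3 ± 25.5 CPM in V1 (SD, n = 4 each), with a slope of 0.26 ± 0.038 (SE, adjusted p = 1.0e-05). Isg15 (0.45 ± 0.089, SE, adjusted p = 4.6e-04), Usp18 (0.39 ± 0.084, SE, adjusted p = 7.9e-04) and Ifi35 (0.18 ± 0.031, SE, adjusted p = 8.6e-05) rose too. Gbp2, a guanylate-binding protein gene, was the member that fell (-0.43 ± 0.096, SE, adjusted p = 0.0010).

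**Figure D5:**
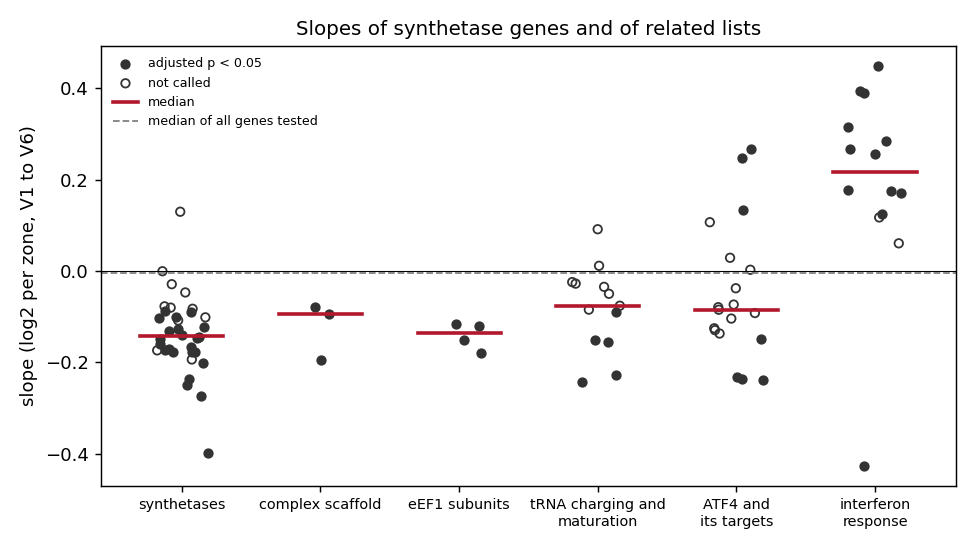
Slope of log2 expression per zone (y axis) for the genes tested of 6 lists (x axis), with filled points at an adjusted p under 0.05, red bars at the list medians and a dashed line at the median of all genes. Synthetase, scaffold, eEF1 and tRNA accessory genes lie mostly below 0, the ATF4 list spreads to both sides, and all interferon genes but Gbp2 lie above 0.

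Other cell markers also changed along the axis, and their part in the synthetase results was not tested. The goblet score changes with zone, so the fit that held it cannot tell goblet content from zone. Over all genes, 22.8% were called lower and 22.1% higher on the slope. All 9 goblet markers fell, with slopes from -0.58 for Fcgbp to -0.42 for Agr2. Ccl6, Tff3, Spdef and Agr2 had the smallest adjusted p, and Zg16 was the most abundant. Of 12 proliferation markers 9 fell, at a summed 214 ± 28.9 CPM in V6 and 503 ± 142 CPM in V1 (SD, n = 4 each), with ranges of 191 to 254 CPM in V6 and 392 to 706 CPM in V1. Of 7 stem and crypt markers 4 fell, at a summed 51.2 ± 12.6 CPM in V6 and 139 ± 52.1 CPM in V1. Leukocyte genes rose in 4 of the 4 tested of 10 listed (Ccl5, Gzma, Gzmb and Cd74), at 1156 ± 364 CPM in V6 and 560 ± 145 CPM in V1. Of 9 enteroendocrine markers 5 rose and 1 (Gip) fell, and of 2 tested tuft markers 1 rose. The 8 Paneth markers had slopes of -0.097 to 0.067, not called. Their sum varied widely between libraries, from 2342 CPM in V4 of mouse 4 to 44416 CPM in V5 of mouse 2. Of 10 enterocyte markers 9 rose. None of 8 stroma and blood genes passed the filter, with Col1a1 at 0 UMIs in 22 of 24 libraries.

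Some levels rest on regions that other genes share. On the annotation, exons on the opposite strand overlap Fars2 (Nrn1, 501 bases), Cars2 (Naxd, 422 bases), Farsb (Sgpp2, 248 bases), Mars (Ddit3, 68 bases) and Iars2 (Rab3gap2, 2034 bases). Whether counting used strand is not given in the sources used here, so reads of such pairs may not be told apart. Aars shares 1326 exonic bases with Exosc6 on the same strand. Of 16 pairs of a cytosolic gene and its mitochondrial counterpart, 2 shared any stretch of 20 bases in their exons, Hars with Hars2 (13 stretches) and Vars with Vars2 (1 stretch).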

How the data were processed

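Per the submitters' processing notes, bcl2fastq 2.15.0.4 and the GRCm38 build were used. The authors deposited raw UMI counts per gene. Not given in the sources used here were the aligner, annotation release, filters and strand setting. Counts were analysed with edgeR 4.0.16 in R 4.3.3. The filter filterByExpr, given the zones, kept 9328 genes at a minimum count of 10 and a minimum total of 15. After TMM scaling, all 24 libraries entered 1 robust quasi-likelihood fit with zone means as coefficients (18 residual degrees of freedom), from which each contrast was taken. P-values were Benjamini-Hochberg adjusted over all genes tested. They rest on the spread of the 4 mice within each zone, pooled over the zones. This fit does not use the pairing by mouse and treats the 24 libraries as independent, while the fit with the replicate block uses the pairing. The SE is the size of the log2 change divided by the square root of F. The slope takes zones as equally spaced. CPM are TMM-scaled, and since each molecule is counted once at its 3′ end, no length correction was made.

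The labels name 1 mouse for same-numbered libraries, so the numbers pair them. Deviations from the zone means correlated above 0.1 in 60 of 60 same-mouse pairs (mean r 0.422, lowest 0.184). Within a zone, no library was a copy of another: chi-square divided by its degrees of freedom was 3.48 to 31.1 in the 36 within-zone pairs. Pairs from different zones were not checked.

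Members and lists were chosen with earlier results of these data known. Named members were up to 8 with the smallest slope adjusted p in each direction, the cytosolic and mitochondrial members with the most UMIs, the 3 with the smallest curvature adjusted p and the dual-location genes, and for each other list its most abundant gene and up to 4 genes of smallest adjusted p. Qars and the other complex genes were given as extremes of a range. Counts include 1 member that is not reported by name here. Further genes, named to say which ones a count holds, were chosen after their values were seen. Coordinates and exon overlaps are from GENCODE M21 on GRCm38.

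Alternatives were mouse as a replicate block, the block with a goblet score (mean log2 CPM of the goblet list, prior count 2), DESeq2 1.42.0 size factors or Wald test, total UMI scaling, limma 3.58.1 voom, a minimum mean of 50 CPM or no filter at all, mitochondrially encoded genes removed, each mouse left out, and slopes over V2 to V6 or V3 to V6. On simulated counts for the slope over 9179 genes, a true slope of 0.1 was called in 3.06% of 98 genes and one of 0.2 in 46.9% of 98, with 7 false calls. The simulated libraries were drawn independently with no mouse effect, while same-mouse libraries in the data were correlated (mean r 0.422). The 7 false calls therefore do not give the number expected for libraries that share a mouse. Figures used Python 3.11.15, numpy 2.4.6, pandas 2.3.3 and matplotlib 3.10.9.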

Additional observations from a re-analysis of the deposited data

Results flagged for a closer look

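In 6 of 78 groups of 4 mice checked (13 named members in 6 zones), 1 library lay far from the other 3 by Dixon's 95% criterion, which chance gives in about 1 of 20 groups. Of these 6, 5 were libraries of mouse 2 above the other mice. Wars had 205 CPM in V1 of mouse 2, against 104 to 121 CPM in the others, and 60.3 CPM in V3 of mouse 2, against 35.4 to 37.1 CPM. Aars had 92.3 CPM in V3 of mouse 2, against 54.3 to 60.3 CPM, and 101 CPM in V5 of mouse 2, against 49.5 to 55.6 CPM. Kars had 57.3 CPM in V5 of mouse 2, against 39.1 to 40.7 CPM. Fars2 had 18.1 CPM in V4 of mouse 3, against 30.9 to 33.5 CPM in the others.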

How the results depend on the processing

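The count of members with a lower slope (23) was 7 of 9 tested at a mean of at least 50 CPM, 0 with the replicate block and goblet score, 3 over V2 to V6, 0 over V3 to V6, and 8 to 22 with a mouse left out. In the same order, 31.2%, 0.547%, 2.85%, 0.0231% and 13.96 to 19.05% of all genes were called lower. V6 minus V1 (17 lower, 0 higher) gave 27 lower under total UMI scaling (33.3% of all genes lower). It gave 6 of 9 at 50 CPM (28.7% of all genes lower) and 0 with the goblet score (0.450%). With a mouse left out it gave 5 to 17 lower, with 10.6 to 15.7% of all genes lower. Members called higher were 1 (Lars2) with the block, where 26.7% of all genes were higher. With a mouse left out they were 0 to 1, where 13.6 to 17.4% of all genes were higher. V3 minus V1 (3 lower, 0 higher) gave 10 lower and 1 higher with the block, 7 lower under total UMI scaling, 1 with no filter, 0 with the goblet score, and 1 to 5 lower and 0 to 1 higher with a mouse left out. V6 minus V3 (1 lower) gave 3 with the block and with the goblet score, where 1.28% and 1.11% of all genes were lower. It gave 0 with DESeq2 size factors, voom, no filter, 50 CPM, mitochondrially encoded genes removed, or any mouse left out. In those fits at most 0.259% of all genes were lower. Curvature (0 higher) gave 1 (Wars) with the block (9.55% of all genes higher) and at 50 CPM (7.29%). With a mouse left out it gave 0 to 1, where 1.30 to 2.10% of all genes were higher. The replicate block changed no call of a named member on the slope but that of Nars. Over the 13 named members, 139 alternative slopes kept direction and side of the threshold, 38 kept direction but lost the call and 4 gained one. Those that changed sign were Gars (0.077), Nars (0.020), Yars (0.021) and Lars2 (-0.14) with the goblet score, and Ears2 (0.048) and Lars2 (-0.095) over V3 to V6, all with the cause not tested. Total UMI scaling moved the median slope of all genes to -0.071 and the split of calls to 13.0% higher and 39.9% lower, with the members' median at -0.21. Slopes near 0.1 were mostly not called in the simulation, where few genes changed. In the data 44.9% of all genes were called, which eases the adjusted cutoff, and a slope of -0.087 (Kars) was called. The simulated share therefore does not give how often slopes of this size are called in these data.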
